A study of Mus musculus with 12 samples.

Results

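The genes described here are 10 components of the Notch pathway: the 4 receptors Notch1, Notch2, Notch3 and Notch4, the 3 ligands Dll1, Dll3 and Jag1, and the 3 target genes Hes1, Hes5 and Hey1. They were chosen by name, as known members of the pathway, out of 24060 genes listed in each of 12 tumor profiles. Earlier results of these data were known when the choice was made. Each was a rhabdoid tumor that arose in a P0-CreC;Smarcb1flox/flox mouse on the FVB/N background, in which Cre recombinase driven by a P0 (myelin protein zero) promoter deletes Smarcb1, a subunit of the SWI/SNF chromatin remodeling complex, in neural crest cells. By location, 4 tumors were retro-orbital, 3 came from the cheek, 3 from the meninges, 1 from the vestibular nerve and 1 from the trigeminal nerve. The tumors arose without any treatment that the labels name. No normal tissue entered the comparison, and the age of each animal is not given in the sources used here.

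Notch receptors are transmembrane proteins that are activated by ligands on a neighboring cell. Ligand binding leads to cleavage of the receptor, first by an ADAM protease and then by gamma-secretase, and the released intracellular domain enters the nucleus, where it binds Rbpj together with a Mastermind coactivator and turns on transcriptional repressors of the Hes and Hey families. In the developing nervous system the pathway holds cells in a progenitor state, in part by Hes proteins repressing proneural genes, and in the neural crest lineage it acts in Schwann cell precursors and in vessel walls.

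Levels were deposited in RPKM, a read number divided by transcript length and by sequencing depth, so that levels of different genes can be set side by side. The values rested on 13206168 to 57128422 fragments per tumor, recovered from the steps between low values. Retro-orbital tumor 3 stood apart. It had the highest fragment total, yet of 4979 genes whose fragments could be recovered, only 125 had 1 to 10 fragments in it, against 511 in retro-orbital tumor 4 and 716 to 1870 in the other tumors. Smarcb1 itself was at 1.70 to 6.31 RPKM, a gene-level value that does not separate a deleted exon from the rest. Of the marker lists, leukocyte genes (6 genes, summed 70.2 to 367 RPKM) and endothelial genes (9 genes, 31.8 to 137 RPKM) were detected in every tumor, so the profiles hold RNA of several cell types. In such bulk samples, fewer cells of a type and less RNA per cell cannot be told apart. Some tumors share the first part of the identifier in their sample title. These pairs were cheek tumor 1 and meninges tumor 1, cheek tumors 2 and 3, and retro-orbital tumor 3 and the trigeminal nerve tumor. What that part stands for is not given in the sources used here, so these pairs may not be independent.

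The 10 genes covered a wide range of levels in every tumor, and the order was led by a receptor, a ligand and a target. Notch2 had the highest median over the 12 tumors, 42.7 RPKM, followed by Jag1 with 18.7, Hes1 with 17.1, Notch1 with 4.44, Hey1 with 4.12, Notch3 with 2.25, Notch4 with 1.75, Dll1 with 1.34, Dll3 with 0.178 and Hes5 with 0.10 RPKM. Set against all listed genes of the same tumor, Notch2 lay above a median of 93.5% of them and Jag1 above 82.8%. Neighbors in this order were compared within each tumor, as differences of log2(RPKM + 1). Notch2 exceeded Jag1 by a mean of 1.20 ± 0.99 (SD, n = 12), in 11 of 12 tumors. Hes1 exceeded Notch1 by 1.50 ± 0.75, in 12 of 12 tumors. Dll1 exceeded Dll3 by 1.06 ± 0.68, also in 12 of 12. For the other 6 neighboring pairs the mean difference was smaller than its SD, so by this measure they are not placed in a firm order. Of 12 tumors, Jag1 was above Hes1 in 8, Notch1 above Hey1 in 5 and Hey1 above Notch3 in 10. Notch3 was above Notch4 in 9, Notch4 above Dll1 in 8 and Dll3 above Hes5 in 8.

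**Figure D1:**
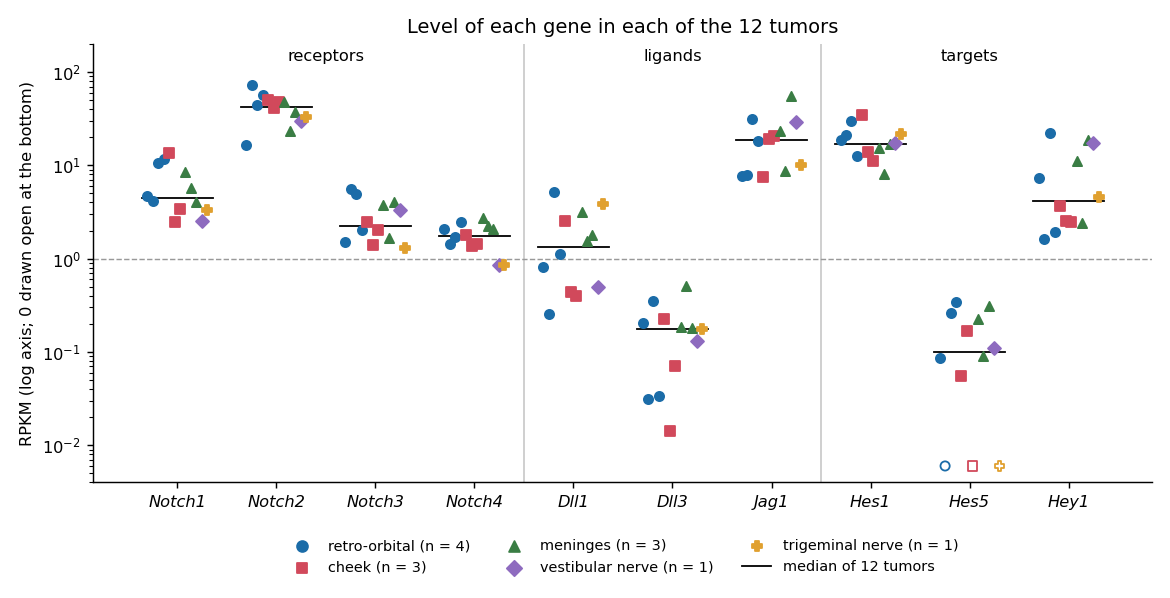
RPKM of each gene (log axis) in each of the 12 tumors, 1 symbol per tumor, with color and shape for the location and a black line at the median of the 12 tumors. Notch2, Jag1 and Hes1 have the highest medians (42.7, 18.7 and 17.1 RPKM), and Dll3 and Hes5 lie below the dashed line at 1 RPKM in all 12 tumors. The symbols of the larger locations overlap, except that in Notch4 every meninges tumor lies above every cheek tumor.

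Among the receptors, Notch2 was the highest of the 4 in 12 of 12 tumors. Notch2 (chr3:98013527-98150361, GRCm38, plus strand), a broadly expressed receptor, measured 16.4, 72.5, 44.2 and 56.5 RPKM in retro-orbital tumors 1 to 4, 50.8, 41.3 and 47.7 in cheek tumors 1 to 3, 47.9, 23.3 and 37.2 in meninges tumors 1 to 3, 30.0 in the vestibular nerve tumor and 33.3 in the trigeminal nerve tumor. The lowest and the highest values were both retro-orbital, and the cheek tumors, with a mean of 46.6 ± 4.87 (SD, n = 3), lay inside the retro-orbital range. As a share of the summed RPKM of the 4 receptors, Notch2 took 66.4% to 88.8% (mean 78.8% ± 7.30, n = 12).

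Notch1 (chr2:26457903-26516663, minus strand), the receptor with the best known part in progenitor maintenance, had the second highest median of the 4 and was above Notch3 in 9 of 12 tumors. Notch1 was at 4.68, 4.20, 10.5 and 11.7 RPKM in the retro-orbital tumors, at 13.5, 2.45 and 3.44 in the cheek tumors, at 8.57, 5.69 and 4.02 in the meninges tumors, at 2.52 in the vestibular nerve tumor and at 3.32 in the trigeminal nerve tumor. The highest and the lowest of the 12 were both cheek tumors, so the cheek range enclosed every other tumor. Notch2 exceeded Notch1 between 3.50-fold (retro-orbital tumor 1) and 17.3-fold (retro-orbital tumor 2), and the share of Notch1 in the receptor sum ran from 5.02% to 19.7%.

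Notch3 and Notch4 are the receptors known from blood vessels, Notch3 in the mural cells of the vessel wall and Notch4 in endothelial cells. Notch3 (chr17:32120820-32166852, minus strand) was at 1.51, 5.57, 4.95 and 2.04 RPKM in the retro-orbital tumors, at 2.44, 1.39 and 2.05 in the cheek tumors, at 3.80, 1.65 and 4.02 in the meninges tumors, at 3.34 in the vestibular nerve tumor and at 1.31 in the trigeminal nerve tumor. It split the retro-orbital tumors into a higher and a lower pair, and the cheek tumors spanned the lower pair. Notch4 (chr17:34564268-34588503, plus strand) was at 2.08, 1.43, 1.69 and 2.45 RPKM in the retro-orbital tumors, at 1.81, 1.35 and 1.42 in the cheek tumors, at 2.71, 2.25 and 2.09 in the meninges tumors, at 0.863 in the vestibular nerve tumor and at 0.858 in the trigeminal nerve tumor. It varied least of the receptors. Its SD over the tumors was 0.32 on the log2(RPKM + 1) scale, against a median SD of 0.48 over the 15043 genes that reached 1 RPKM in 3 or more tumors. This scale understates the spread of low genes such as Notch4 (median 1.75 RPKM), whose highest value was 3.16 times the lowest. All 3 meninges tumors lay above all 3 cheek tumors in Notch4, but the retro-orbital tumors overlapped with both, and the tumors of the vestibular and trigeminal nerves were the lowest.

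**Figure D2:**
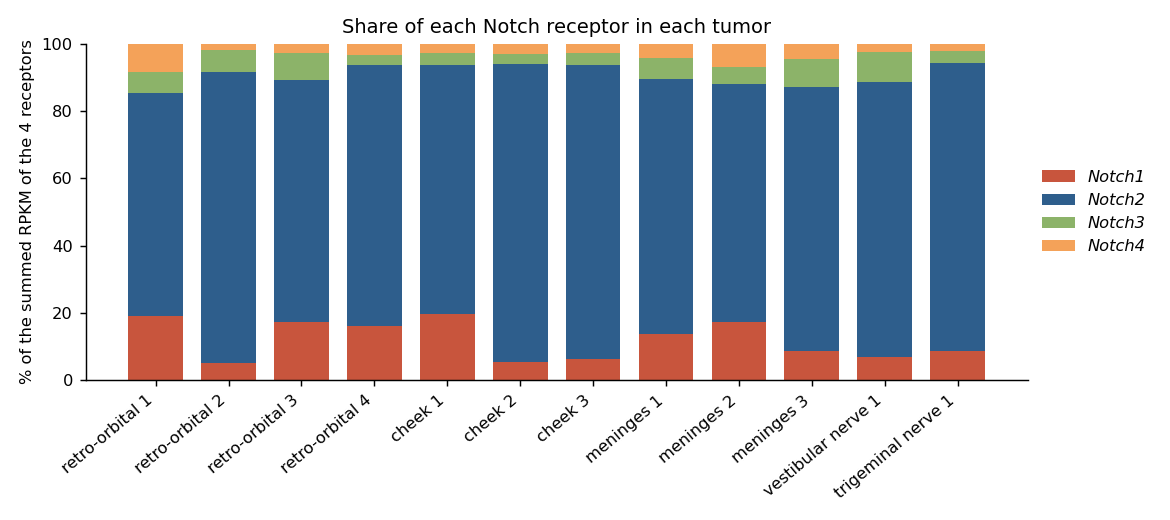
Share of each of the 4 Notch receptors in their summed RPKM (vertical axis, %), 1 stacked bar per tumor. Notch2 makes up 66.4% to 88.8% of each bar, and Notch1 ranges from 5.02% in retro-orbital tumor 2 to 19.7% in cheek tumor 1.

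Jag1 was the highest of the 3 ligands in 12 of 12 tumors. Jag1 (chr2:137081456-137116644, minus strand), a ligand of the Jagged family that is widely used outside the neural tube as well, was at 7.62, 7.89, 31.6 and 18.0 RPKM in the retro-orbital tumors, at 7.46, 19.3 and 20.5 in the cheek tumors, at 23.3, 8.74 and 55.8 in the meninges tumors, at 28.9 in the vestibular nerve tumor and at 10.1 in the trigeminal nerve tumor. Each of the 3 larger locations held both low and high tumors, and the highest value was 7.48 times the lowest. Jag1 made up 71.7% to 97.9% of the summed RPKM of the 3 ligands.

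Dll1 (chr17:15367354-15376872, minus strand), a Delta ligand of neural progenitors and their differentiating neighbors, was at 0.808, 0.258, 5.15 and 1.11 RPKM in the retro-orbital tumors, at 2.51, 0.438 and 0.398 in the cheek tumors, at 3.18, 1.56 and 1.80 in the meninges tumors, at 0.503 in the vestibular nerve tumor and at 3.83 in the trigeminal nerve tumor. It passed 1 RPKM in 7 of 12 tumors and was uneven within locations, running from 26 fragments in retro-orbital tumor 2 to 1009 in retro-orbital tumor 3. Dll3 (chr7:28293553-28302238, minus strand), a divergent Delta protein that mostly acts inside the cell against Notch signaling, was at 0.205, 0.0315, 0.348 and 0.0336 RPKM in the retro-orbital tumors, at 0.228, 0.0142 and 0.0700 in the cheek tumors, at 0.185, 0.510 and 0.182 in the meninges tumors, at 0.130 in the vestibular nerve tumor and at 0.175 in the trigeminal nerve tumor. These values stood for 1 to 43 fragments. Depending on the tumor, 3 fragments were worth 0.0243 to 0.105 RPKM of Dll3, and 4 of the 12 tumors, among them cheek tumors 2 and 3, were at or under that floor.

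Hes1 was the highest of the 3 targets in 10 of 12 tumors. Hes1 (chr16:30064384-30067796, plus strand), a basic helix-loop-helix repressor that other pathways can also induce, was at 18.5, 21.0, 29.8 and 12.6 RPKM in the retro-orbital tumors, at 34.9, 13.9 and 11.0 in the cheek tumors, at 15.5, 8.12 and 16.9 in the meninges tumors, at 17.3 in the vestibular nerve tumor and at 21.8 in the trigeminal nerve tumor. No tumor lacked it, and the cheek tumors again held the highest value. Hey1 (chr3:8663359-8667256, minus strand), a Hes-related repressor known from vessels and from neural and mesenchymal precursors, was at 7.35, 1.64, 22.0 and 1.91 RPKM in the retro-orbital tumors, at 3.63, 2.54 and 2.47 in the cheek tumors, at 11.2, 2.41 and 18.8 in the meninges tumors, at 17.5 in the vestibular nerve tumor and at 4.61 in the trigeminal nerve tumor. On the log2(RPKM + 1) scale, it was the most variable of the 8 genes that reached 1 RPKM in 3 or more tumors. Its SD of 1.16 on this scale lay above that of 90.7% of the 15043 genes. The scale understates the spread of low genes such as Dll1. By the ratio of highest to lowest RPKM, Dll1 (19.97) varied more than Hey1 (13.47). Hey1 exceeded Hes1 in meninges tumor 3 and in the vestibular nerve tumor, where Hes1 was 0.901 and 0.988 times Hey1, and Hes1 was otherwise up to 12.8 times higher.

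Hes5 (chr4:154960923-154962371, plus strand), a Hes repressor that in the embryonic nervous system follows Notch activity closely, was near 0 in all tumors. It was at 0.0870, 0, 0.261 and 0.343 RPKM in the retro-orbital tumors, at 0.0554, 0.169 and 0 in the cheek tumors, at 0.228, 0.0896 and 0.309 in the meninges tumors, at 0.111 in the vestibular nerve tumor and at 0 in the trigeminal nerve tumor. These were 0 to 19 fragments, with 6 of the 12 tumors at or under 3. In the 3 tumors without a fragment, a count of 0 allows up to 3 fragments, which is 0.0802 RPKM in retro-orbital tumor 2, 0.178 in cheek tumor 3 and 0.111 in the trigeminal nerve tumor. The sequence upstream of Hes5 is shown because it is the member whose promoter window holds the DNA motif bound by Rbpj, the nuclear partner of all 4 receptors. The 250 bases before its start (RefSeq, GRCm38.p6, chr4:154960673-154960922, plus strand, 5′ to 3′) read as follows, with the motif GTGGGAA and its reverse complement TTCCCAC in capitals.
Hes5 upstream: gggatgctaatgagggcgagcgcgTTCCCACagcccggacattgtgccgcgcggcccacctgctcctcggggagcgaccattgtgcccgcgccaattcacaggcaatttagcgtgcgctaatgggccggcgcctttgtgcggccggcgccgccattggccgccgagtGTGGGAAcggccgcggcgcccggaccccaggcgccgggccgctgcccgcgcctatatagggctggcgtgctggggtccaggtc
The 2 matches lay 1 on each strand, pointing away from each other, and began 226 and 83 bases before the start. Of 32851 promoter windows of that length, 5.42% held GTGGGAA on either strand and 0.161% held it at 2 or more places. Windows were at hand for 8 of the 10 genes, Hes1 and Hey1 not among them, and the motif occurred in none of the others. The match describes the letters only, and no measurement of binding was made.

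Whether location accounted for the differences was tested with limma on log2(RPKM + 1) over the 10 tumors of the 3 larger locations. A gene entered when 3 or more of these 10 tumors reached 1 RPKM, which 8 of the 10 genes did. Dll3 and Hes5 did not. No member passed an adjusted p of 0.05 in the F test across the 3 locations, where 0.0407% of the 14745 genes tested did, and no member had an unadjusted p under 0.05, against 2110 genes in all. The adjusted p of the members in limma's F test ran from 0.595 (Notch4) to 0.847 (Notch1). None passed in a single contrast either, where the background was 0.0203% for meninges against retro-orbital, 0.0271% for cheek against retro-orbital and 0.0475% for cheek against meninges. With so few tumors the intervals were wide, and the absence of a call does not show that the locations had equal levels.

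The largest difference was that of Hey1, which was 1.28 lower on the log2 scale in the cheek than in the meninges tumors (SE 0.86, 95% interval -3.21 to 0.64, limma adjusted p = 0.459). Its mean was 2.88 ± 0.65 RPKM (SD, n = 3) in the cheek and 10.8 ± 8.19 (n = 3) in the meninges, but meninges tumor 2 lay below all 3 cheek tumors. Jag1 was 0.69 higher in the meninges than in the retro-orbital tumors (SE 0.66, interval -0.80 to 2.18, adjusted p = 0.737). Dll1 was 0.70 lower in the cheek than in the meninges (SE 0.59, interval -2.02 to 0.63, adjusted p = 0.560). Hes1 went the other way, 0.57 lower in the meninges than in the retro-orbital tumors (SE 0.42, interval -1.52 to 0.38, adjusted p = 0.674). Notch4, with the smallest standard errors of the 8 genes, was 0.41 lower in the cheek than in the meninges (SE 0.25, interval -0.98 to 0.16, adjusted p = 0.430). Of the other receptors, Notch2 was 0.41 higher in the cheek than in the meninges (SE 0.48) and Notch3 was 0.51 lower in the cheek than in the retro-orbital tumors (SE 0.41). These values moved with single tumors. Leaving out 1 tumor at a time, Jag1 in meninges against retro-orbital ran from 0.0586 (without meninges tumor 3) to 1.33 (without meninges tumor 2), and Hey1 in cheek against meninges from -2.01 (without meninges tumor 2) to -0.75 (without meninges tumor 3). Dll1 in cheek against meninges ran from -1.13 (without cheek tumor 1) to -0.47 (without cheek tumor 3), and Hes1 in meninges against retro-orbital from -0.76 (without retro-orbital tumor 4) to -0.26 (without meninges tumor 2).

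**Figure D3:**
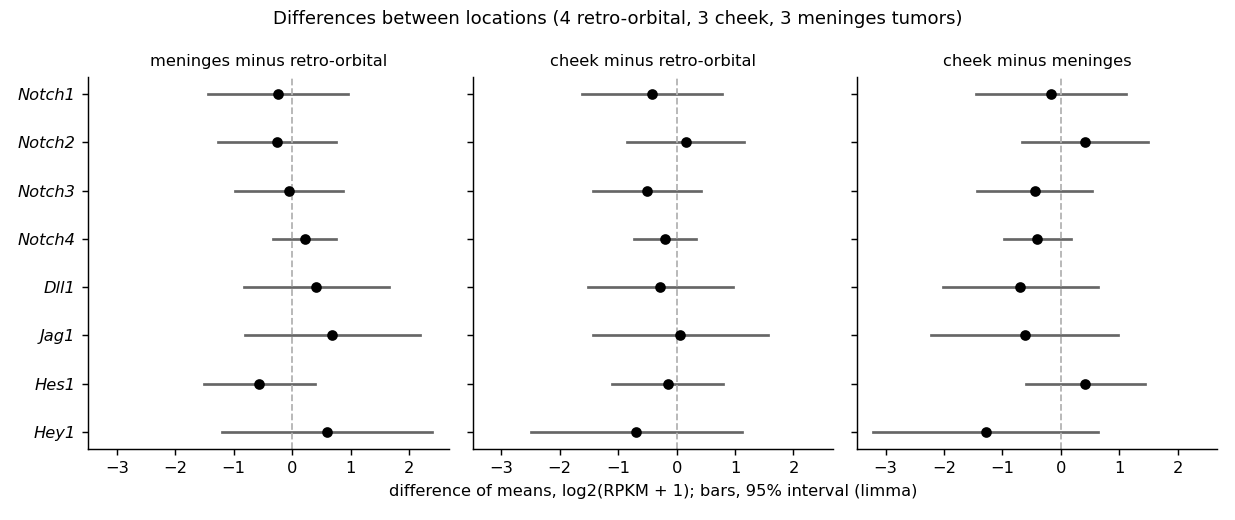
Difference of mean log2(RPKM + 1) between locations (horizontal axis) for the 8 genes tested, with 95% intervals from limma as bars and 1 panel per contrast. Every interval crosses the dashed line at 0, and the widest belong to Hey1.

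All genes together were shifted between the locations, by a median of 0.13 in meninges against retro-orbital and -0.16 in cheek against meninges. The 8 members had medians of 0.08 and -0.43 in the same contrasts, and -0.24 in cheek against retro-orbital, where the median of all genes was -0.02. Relative to that shift, Notch4 in the meninges differed little from the retro-orbital tumors. After quantile normalization, which removed most of the shift, Notch4 was at -0.03 in meninges against retro-orbital and at 0.0032 in cheek against meninges. No member had 1 location entirely above or below the other 2, a pattern that 11.1% of the 14745 genes showed. When the identifier prefix was entered as a random effect, with a consensus correlation of 0.93 that rests on 2 pairs of tumors, 4 members passed in cheek against meninges. Hes1 was then 1.04 higher in the cheek (limma adjusted p = 0.00582), Jag1 1.41 lower (adjusted p = 0.00956), Hey1 1.37 lower (adjusted p = 0.0228) and Notch4 0.40 lower (adjusted p = 0.0410), while 4243 genes passed in all. Only the prefix of cheek tumor 1 and meninges tumor 1 spans both locations, so at this correlation the contrast rests mostly on that pair. Those tumors differed by 1.52 in Jag1. The adjusted p-values of this fit therefore do not measure a difference between locations over several tumors. With cheek tumors 2 and 3 averaged to 1 tumor, an alternative chosen after seeing the data, no gene passed in any contrast, and 1198 genes had an unadjusted limma p under 0.05 in cheek against meninges.

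Relations over the 12 tumors were tested in 6 pairs, with permutation tests of the correlation of log2(RPKM + 1). Those reported here set a target against a ligand or receptor upstream of it, or a receptor against the summed markers of a cell type. Jag1 and Hey1 had the highest Pearson's r. The same 4 tumors were the highest in both, namely meninges tumors 1 and 3, retro-orbital tumor 3 and the vestibular nerve tumor. Pearson's r was 0.67 (permutation p = 0.0191, adjusted p = 0.111) and Spearman's rho 0.62 (permutation p = 0.0347, adjusted p = 0.104), so the relation did not pass after adjustment over the 6 pairs. Without cheek tumor 1 and meninges tumor 3, the farthest from the median of Jag1, r was 0.58 (permutation p = 0.0853). Leaving out retro-orbital tumor 1 alone gave an r of 0.75 and a permutation adjusted p of 0.0488, the lowest among the alternatives. Leaving out meninges tumor 3 gave the lowest r, 0.57. The summed level of 6 astrocyte markers was 365, 569, 474 and 203 RPKM in retro-orbital tumor 3, meninges tumors 3 and 1 and the vestibular nerve tumor, and 61.1 to 227 RPKM in the other 8 tumors, and its part in the relation was not tested. No astrocyte marker was at 0 in any tumor, but Gja1, which other cell types also express, made up most of the sum in several. The other 5 markers summed to 306, 458, 403 and 78.4 RPKM in those 4 tumors, to 173 and 147 in meninges tumor 2 and the trigeminal nerve tumor, and to 1.71 to 23.8 in the other 6.

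Notch4 was set against the summed level of the 9 endothelial markers. That sum was 40.6 RPKM in the vestibular nerve tumor, next to the lowest in Notch4, and 93.3, 134 and 94.3 in the meninges tumors. Other tumors departed from the relation. The trigeminal nerve tumor, lowest in Notch4, had a sum of 69.6, and retro-orbital tumors 2 and 3, with the lowest and the highest sum (31.8 and 137), had middling Notch4 levels of 1.43 and 1.69 RPKM. Pearson's r was 0.60 (permutation p = 0.0369, adjusted p = 0.111) and Spearman's rho 0.72 (permutation p = 0.0111, adjusted p = 0.0669). Without retro-orbital tumor 2 and the vestibular nerve tumor, r was 0.51 (permutation p = 0.129), and after quantile normalization of all values it was 0.23. In the cheek tumors, all lower in Notch4 than the meninges tumors, the endothelial sum was 71.7 to 82.4 RPKM, and its part in that difference was not tested.

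The remaining pairs showed weaker relations. Hes1 with Notch1 had an r of 0.35 (permutation p = 0.271, adjusted p = 0.407), and without cheek tumor 1, the highest in both, r was 0.08. Hes5 with Dll1 had an r of 0.29 (permutation p = 0.349, adjusted p = 0.419). Notch3 with the summed 8 mural cell markers had an r of -0.01 (permutation p = 0.983). The tumors with the highest mural sum, retro-orbital tumors 1 (424 RPKM) and 3 (370 RPKM), were low and high in Notch3. Most of that sum was Mcam in the first (350 RPKM) and Rgs5 in the second (256 RPKM). Without retro-orbital tumor 1 and the vestibular nerve tumor, r was 0.35 (permutation p = 0.320). At 12 tumors, 3 pairs of which share an identifier prefix, a moderate relation could have been missed.

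**Figure D4:**
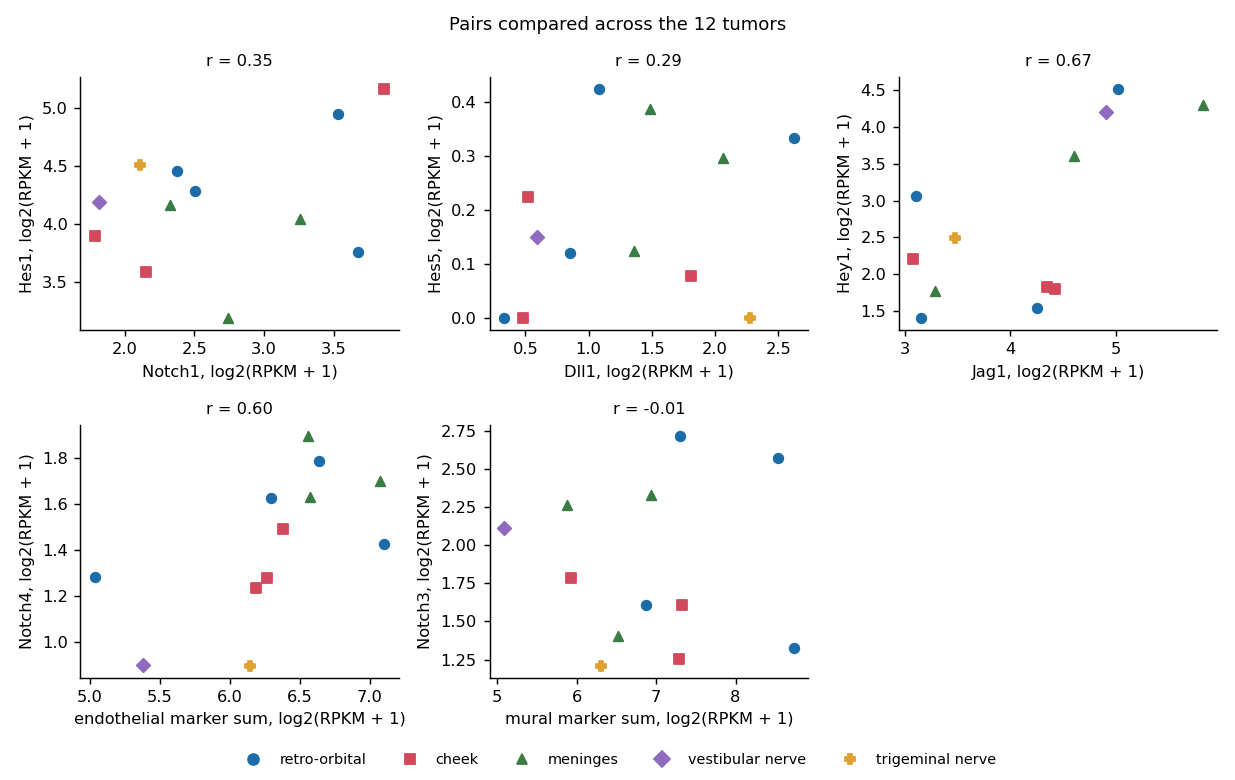
Scatter plots of 5 of the pairs, both axes in log2(RPKM + 1), 1 symbol per tumor with color and shape for the location and Pearson's r above each panel. Hey1 against Jag1 (r = 0.67) shows 4 tumors high in both, and Notch3 against the mural marker sum (r = -0.01) shows no trend.

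The genes whose levels followed the members most closely over the 12 tumors were listed as a description only. Location, depth and cell mixture differed among the 12 tumors, and their part in these correlations was not tested. Notch1 was followed most closely by Mafg (r = 0.86), Maml2 (r = 0.86), itself a coactivator of the Notch nuclear complex, and Arhgap26 (r = 0.85). Notch4 was closest to Eng (r = 0.89), a receptor of endothelial cells, then to Emc9 (r = 0.89) and Fgd4 (r = 0.89). Dll1 had the closest companions, Fnbp4 (r = 0.97), Elmsan1 (r = 0.96) and Maml1 (r = 0.96), another Mastermind coactivator. For Notch2 they were Ly75 (r = 0.87), Timp3 (r = 0.84) and Plxna1 (r = 0.84). For Notch3 they were Nhs, Fam84a and Gramd1b (r = 0.87, 0.87 and 0.86). Jag1 went with Acpp (r = 0.86), 9230104L09Rik (r = 0.83) and Atp8a2 (r = 0.82), Hes1 with Garem (r = 0.90), Pex3 (r = 0.88) and Nupl2 (r = 0.85), and Hey1 with Glb1l2 (r = 0.91), Cdh20 (r = 0.91) and Mir181b-2 (r = 0.91). No member was among the closest 3 of another member.

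Most of the rest of the pathway was present in every tumor. Of 53 other pathway genes, 35 had at least 1 RPKM in all 12 tumors, 44 were tested by location, and none passed in limma's F test (lowest adjusted p = 0.164, Dtx4; 7 had an unadjusted p under 0.05, as did 14.3% of all genes tested) or in a contrast. The 9 genes of the receptor proteases were all at 1 RPKM or more in every tumor. Furin, which processes the receptor on its way to the surface, was at a median of 49.8 RPKM (26.6 to 150), Adam10, the sheddase, at 46.1 (37.1 to 53.2), and Ncstn, a gamma-secretase subunit, at 28.7 (24.6 to 37.6). All 7 genes of the nuclear complex were likewise above 1 RPKM throughout, led by Snw1 (median 53.8 RPKM, 46.1 to 85.2), Ep300 (14.1, 7.18 to 21.4) and Kat2b (12.3, 6.65 to 22.5). Rbpj, the DNA-binding partner named here after its values were seen, ranged from 6.24 RPKM in the trigeminal nerve tumor to 50.0 and 53.8 RPKM in cheek tumors 2 and 3.

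Among genes of ligand endocytosis and sugar transfer, Mib1, the ubiquitin ligase that starts ligand endocytosis, was at 26.9 to 37.6 RPKM, and the sugar transferases Poglut1 and Pofut1, which modify the receptors, were at 11.4 to 23.5 and 7.72 to 17.5 RPKM. Of the 44 tested pathway genes, 8 had 1 location entirely above or below the other 2, against 11.1% of all genes tested. They are named after their values were seen, and 5 of the 8 were among the 9 genes of endocytosis and sugar transfer. Lfng, Mfng and Neurl1a were lower in the cheek tumors than in every meninges and retro-orbital tumor, and Rfng and Mib2 were higher in the meninges tumors. The other 3 were Maml3, lower in the retro-orbital tumors, Dtx4, lower in the cheek tumors, and Hes7, lower in the retro-orbital and higher in the meninges tumors. Lfng, a Fringe enzyme that alters which ligands a receptor answers to, was at 5.21 to 6.50 RPKM in the cheek against 6.89 to 15.6 in the meninges and 7.34 to 17.4 in the retro-orbital tumors. The nerve tumors did not enter this comparison. In the vestibular nerve tumor, Lfng, Mfng and Neurl1a were at 2.51, 0.614 and 0.367 RPKM, below every cheek tumor. Its Rfng (10.9 RPKM) lay inside the meninges range, and its Mib2 (11.5 RPKM) lay below that of the meninges tumors. In the trigeminal nerve tumor, Lfng (6.27 RPKM) lay inside the cheek range, Neurl1a (0.717) below it and Mfng (3.09) above it. None of the 8 passed adjustment over all genes. Among inhibitors and turnover factors, Dtx3, Itch and Numbl were highest (medians 36.9, 21.6 and 18.0 RPKM).

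Among the other ligands and Hes or Hey genes, Hey2 and Dner were marked by single tumors. Hey2, a close relative of Hey1, was at 120 RPKM (8667 fragments) in the vestibular nerve tumor and at 0.115 to 6.68 RPKM in the other 11. Dner, a neuronal membrane protein described as a Notch ligand, was at 56.9 RPKM in retro-orbital tumor 2 and at 0.0813 to 5.36 in the other 11. Dlk1, a ligand-like protein that lacks the Delta domain for activation and is imprinted, was at 2.62 to 325 RPKM (median 63.6). It was highest in retro-orbital tumor 4 (325) and cheek tumor 1 (299.9) and lowest in retro-orbital tumor 2 (2.96) and the trigeminal nerve tumor (2.62). Jag2 was at 1.03 to 11.4 RPKM and highest in retro-orbital tumor 3. Hes6 (5.22 to 15.6 RPKM) and Hes7 (0.218 to 7.62 RPKM) were detected in all tumors. The 6 genes listed here as proneural stayed at low levels, and whether Hes proteins repress them in these tumors was not tested. In 5 of the 6 no tumor reached 1 RPKM, and the exception, Neurod1, was at 1.57 and 1.70 RPKM in cheek tumors 2 and 3. Insm1 peaked at 0.216 RPKM.

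**Figure D5:**
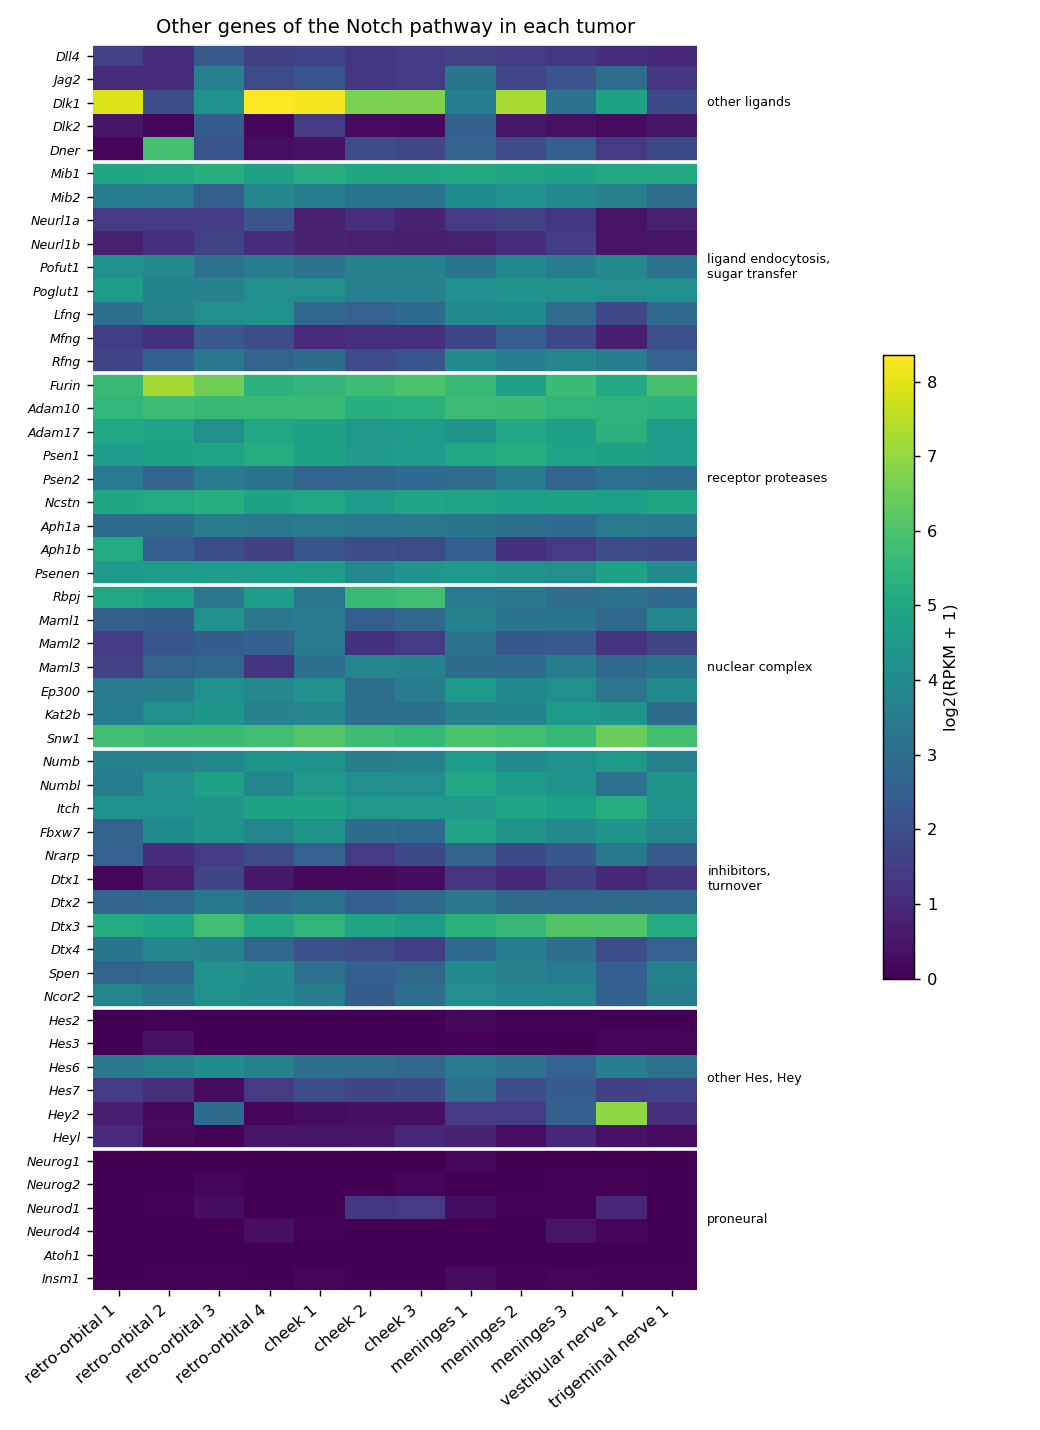
Heat map of log2(RPKM + 1) for the 53 other genes of the pathway (vertical axis, grouped by role) in the 12 tumors (horizontal axis). The protease and nuclear complex blocks are at 1 RPKM or more in every tumor, the proneural block is close to 0 apart from Neurod1, and Hey2 in the vestibular nerve tumor (120 RPKM), Dner in retro-orbital tumor 2 (56.9 RPKM) and Dlk1 stand out.

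Tumors that share an identifier prefix were set side by side over the 8 genes. Cheek tumors 2 and 3 were the closest of all 66 pairs of tumors, with a median absolute difference of 0.14 on the log2(RPKM + 1) scale and a highest of 0.36, in Notch1. Cheek tumor 1 and meninges tumor 1 differed by a median of 0.54, close to the median of 0.67 of the 63 pairs with no shared prefix, and most in Jag1 (1.52). Retro-orbital tumor 3 and the trigeminal nerve tumor differed by 0.95, and most in Hey1 (2.04).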

How the data were processed

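RNA of 12 mouse tumors was sequenced as stranded, ribosome-depleted libraries run in a single pool. The authors aligned the reads to mm10 with STAR, counted fragments with HTSeq on the RefSeq annotation, and deposited RPKM values as 1 table per tumor; the submitters' processing notes also name bcl2fastq 2.17, edgeR and limma. How the RPKM were computed, and whether counting used strand, is not given in the sources used here. Positions are from GENCODE M21 on GRCm38, the same assembly as mm10.

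Groups were the labelled locations. Genes that reached 1 RPKM in 3 or more of the 10 tumors were tested on log2(RPKM + 1), which understates changes of low genes, with limma 3.58.1 in R 4.3.3 (trended, robust prior; Benjamini-Hochberg, threshold 0.05). Correlations used two-sided permutation tests with 100000 resamples in Python 3.11.15 with numpy and scipy, adjusted over 6 pairs, 1 of which is not reported here. The vestibular and trigeminal nerve tumors entered the levels and correlations only. Fragments were recovered as the numbers that make a gene's 12 values whole, within 0.002 of a fragment, and floors of 3 fragments cover counting error only. The scripts were tested on simulated data. The labels do not say which tumors came from separate animals, so p-values measure the spread between these samples.

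All 10 members, other pathway genes with the 3 highest medians of their list or past the threshold, and the 3 genes of highest r with a member were named. The members and lists were chosen with earlier results of these data known. The pseudocount, filter, normalization, prior, identifier prefix and each tumor were varied.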

Additional observations from a re-analysis of the deposited data

How the results depend on the processing

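No member passed the location tests under another pseudocount, filter, normalization or prior, or without any 1 tumor. The exceptions came from the identifier prefix as a random effect, where Jag1 and Hes1 passed the F test and 4 members passed in cheek against meninges. In that fit the contrast rests mostly on cheek tumor 1 and meninges tumor 1, which share a prefix. The number of genes past the threshold was unstable, so calls over all genes rest on few tumors. In the F test it was 6 and became 10 with no filter, 3 with 1 RPKM in at least 6 tumors, 19 with a plain prior, 2802 with the random effect and 0 with cheek tumors 2 and 3 as 1 tumor. For meninges against retro-orbital, 3 became 7, 1 and 6 with the same filters and the plain prior, and 0 with the merged tumors. For cheek against retro-orbital, 4 became 2 with either filter and with the random effect, and 0 with the merged tumors. For cheek against meninges, 7 became 2 with a pseudocount of 0.1, 18 and 1 with the filters, 13 with quantile normalization, 22 with the plain prior, 4243 with the random effect and 0 with the merged tumors. Leaving out 1 tumor gave 0 to 198 genes in the F test, 0 to 41, 0 to 147 and 0 to 527 in those 3 contrasts, the highest without cheek tumor 1 or, for 41, retro-orbital tumor 3. Limma fits with 0 calls had 739 to 1977 genes at an unadjusted p under 0.05 (911 to 1198 with the merged tumors). The cause was not tested.

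Several of the 24 member contrasts turned direction, among them Jag1 and Hes1 in cheek against meninges (-0.62 and 0.42 with all tumors). Notch1 in cheek against meninges was 0.18 with quantile normalization, 0.52 with the random effect and 0.14 with the merged tumors. With the random effect, cheek against retro-orbital was -0.0714 for Notch2, -0.43 for Jag1 and 0.21 for Hes1, and with the merged tumors -0.15 for Jag1 and 0.0896 for Hes1. Notch4 with quantile normalization was -0.0341 in meninges against retro-orbital and 0.0032 in cheek against meninges. Leaving out 1 tumor, cheek against meninges ranged from -0.81 to 0.23 for Notch1, -1.27 to 0.0069 for Jag1 and -0.0571 to 0.73 for Hes1, meninges against retro-orbital from -0.69 to 0.0180 for Notch2 and -0.30 to 0.24 for Notch3, and cheek against retro-orbital from -0.28 to 0.41 for Notch2, -0.72 to 0.19 for Dll1, -0.19 to 0.50 for Jag1 and -0.62 to 0.17 for Hes1. Among correlations, r of Hes5 with Dll1 was -0.0715 with quantile normalization, and r of Notch3 with the mural sum was 0.14 with it and 0.0243 with the merged tumors. Leaving out 1 tumor, r of Hey1 with Jag1 was 0.57 to 0.75 and that of Notch3 with the mural sum -0.27 to 0.20. Dll1 exceeded Dll3 by 2.46 with a pseudocount of 0.1. No paired analysis was possible because replicate numbers are accession order. Dll3 and Hes5, at 0 to 43 fragments, are limited by depth.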
